A study of Homo sapiens with 6 samples.

Results

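SRC family kinases are tyrosine kinases at the inner face of the cell membrane that relay signals from integrins and growth factor receptors. Their RNA was followed in PC3 cells through 9 named genes: the family members LYN, SRC, FYN, YES1, LCK and FRK, the inhibitory kinase CSK, the focal adhesion kinase PTK2 and the adhesion scaffold BCAR1. The annotation used here lists only probes among the 17925 of 47231 that were detected on at least 1 array, and every probe it gives to one of these symbols was taken, which gave 12 probes for 8 of the 9 genes, out of 10756 genes with an annotated probe. FRK, a more distant relative known from epithelial tissues, had none among the listed probes and was not analysed here. LYN was chosen by its lower signal with doxycycline in the comparison described here, so its values are a description without a test. The other 7 genes were named for their kinship to LYN or their work with the family, with earlier results of these arrays known.

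PC3 is an established human prostate cancer line, and the cells carry a construct for the transcriptional coactivator PGC1A that doxycycline switches on. The 3 P_DOX samples were grown with doxycycline for 2 passages, and the 3 M_DOX samples, of the same PGC1A line, were grown without it. The doxycycline dose, the promoter of the construct and whether the line is a single clone are not stated. Treated cells without the construct were not analysed here, so doxycycline and induced PGC1A cannot be told apart. Nothing in the labels says that the replicates were separate cultures, so the spread behind each p-value may be technical.

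As background, the kinases of this family are held inactive when CSK phosphorylates a tyrosine in their tail, and are released when a phosphatase removes that mark. Active SRC, FYN and YES1 work at focal adhesions, where SRC binds the kinase PTK2 and phosphorylates the scaffold BCAR1, a step in cell spreading and migration. LYN and LCK are best known from blood cells, LYN downstream of the B cell receptor and LCK of the T cell receptor, and LYN is also found in prostate epithelium and its tumours.

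The induced gene was near background on the arrays. Its probe (PPARGC1A) averaged 5.36 ± 0.33 log2 units with doxycycline and 5.32 ± 0.34 without it (SD, n = 3 each), and whether that probe reads the construct was not tested. ESRRA, a nuclear receptor that partners PGC1A, averaged 8.52 ± 0.08 in P_DOX and 8.02 ± 0.05 in M_DOX arrays (SD, n = 3 each). Of the markers of the line, KRT8, KRT19, EPCAM, CDH1, VIM and CD44 were detected on all 6 arrays and KRT18 on 1. The P_DOX arrays detected from 15437 to 16012 probes and the M_DOX arrays from 15029 to 15841. Median raw intensity was lower with doxycycline, from 60.03 to 61.59 in P_DOX against 65.58 to 68.04 in M_DOX arrays, before normalization. On the first principal component (34.1% of the variance) P_DOX replicate 2 lay at 20.6, P_DOX replicates 1 and 3 at 7.35 and 7.51, and all M_DOX arrays at -8.84 or below. The second held nearly as much (31.9%). On it replicate 1 lay at 20.2 in P_DOX and 6.42 in M_DOX, replicate 2 at -14.1 and -14.0, and replicate 3 at 6.11 and -4.63.

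Promoter sequence is shown for FYN, whose brightest probe was lower with doxycycline without overlap, and for YES1, its close relative, whose groups overlapped. Both are RefSeq sequences of build GRCh38.p14, the 250 bases before the start site, 5′ to 3′, with GC boxes (GGGCGG on either strand) in capitals. The FYN window lies at chr6:111873453-111873702 and the YES1 window at chr18:812243-812492, both on the minus strand.
FYN: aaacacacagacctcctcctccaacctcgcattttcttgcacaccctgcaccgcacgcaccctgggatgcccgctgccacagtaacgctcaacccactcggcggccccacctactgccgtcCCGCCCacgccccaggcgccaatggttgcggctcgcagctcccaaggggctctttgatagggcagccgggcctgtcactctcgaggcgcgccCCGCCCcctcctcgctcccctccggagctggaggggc
YES1: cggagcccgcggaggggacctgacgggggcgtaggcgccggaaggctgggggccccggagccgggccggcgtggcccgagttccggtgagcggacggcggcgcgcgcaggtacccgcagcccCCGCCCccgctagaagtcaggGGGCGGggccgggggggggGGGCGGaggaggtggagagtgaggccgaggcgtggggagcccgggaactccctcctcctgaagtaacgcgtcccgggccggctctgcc
The FYN window held 2 GC boxes and the YES1 window 3, and a GC box stood in 42.6% of all 35116 promoter windows of that length. The promoters of LYN and PTK2 were not analysed here and SRC had no listed window, so the motif counts below do not cover these genes. Windows were read for 6 of the 9 genes, with 14 windows in all. FYN has 4 of these, and its second window, which is not printed, held 8 GC boxes while the other two held none. The core of the estrogen-related receptor element (AAGGTCA, either strand), the motif of the family that ESRRA belongs to, was in 0 of the 14 windows and in 3.44% of all windows. The E-box bound by MYC (CACGTG, a palindrome) was likewise in 0 of the 14 and in 6.34% of all. GC boxes were found in 7 of the 14 windows. Of the 3 motifs only GC boxes occurred in the windows printed.

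LYN RNA was lower on every doxycycline array. Its probe (ILMN_1781155) read 7.68, 7.70 and 7.63 log2 units in P_DOX replicates 1, 2 and 3, against 8.14, 8.18 and 8.17 in M_DOX replicates 1, 2 and 3. The groups did not overlap, and the gap between them was many times the spread within either. The mean was 7.67 ± 0.035 in P_DOX and 8.16 ± 0.022 in M_DOX arrays (SD, n = 3 each), a log2 change of -0.49 (SE 0.0775), or 0.712 of the M_DOX level. In the raw intensities before any correction LYN averaged 235 ± 12.5 in P_DOX and 341 ± 19.1 in M_DOX arrays (SD, n = 3 each). Between arrays of the same replicate number the difference was -0.46, -0.48 and -0.54 for replicates 1, 2 and 3, and its sign follows from the lack of overlap. Of 15542 probes tested, 97 had a log2 change as low as LYN or lower, which is 0.624%. As LYN was chosen on this comparison, that share is a description and not a test. In these bulk samples less LYN RNA per cell and fewer cells with LYN RNA cannot be told apart.

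**Figure D1:**
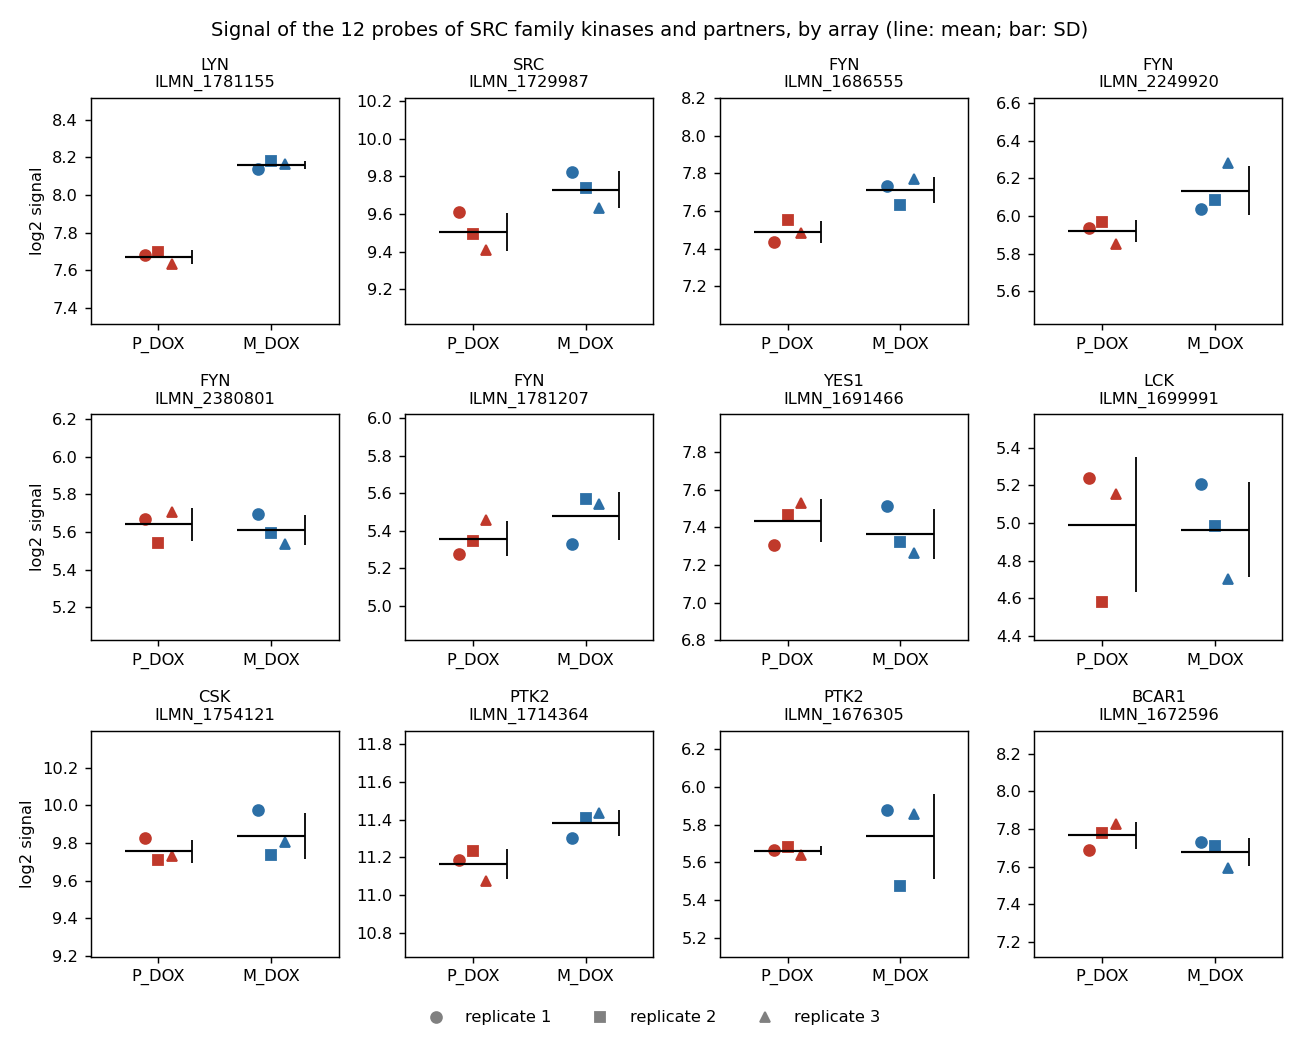
Normalized log2 signal (y axis, 1.2 log2 units in each panel) of the 12 probes on the 3 P_DOX and 3 M_DOX arrays, with marker shape for the replicate number, a line for the mean and a bar for the SD. All P_DOX arrays lie below all M_DOX arrays for LYN, SRC, 2 of 4 FYN probes and 1 of 2 PTK2 probes.

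SRC, the founding member of the family, also read lower on the doxycycline arrays, by less than LYN and without passing the test. It read 9.61, 9.49 and 9.41 in P_DOX replicates 1 to 3, against 9.82, 9.74 and 9.63 in M_DOX replicates 1 to 3. The groups did not overlap, although P_DOX replicate 1 and M_DOX replicate 3 lay close together. The mean was 9.50 ± 0.10 in P_DOX and 9.73 ± 0.098 in M_DOX arrays (SD, n = 3 each). The log2 change of -0.23 (SE 0.0948, 95% interval from -0.45 to -0.01) did not pass the threshold (limma, adjusted p = 0.319). Within replicate numbers 1, 2 and 3 the difference was -0.21, -0.24 and -0.22, a narrow range, and with the replicate number as a block the adjusted p was 0.147.

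FYN, which acts beside SRC and YES1 in most tissues, had 4 probes annotated to 3 transcripts, and they did not run alike. The brightest (ILMN_1686555) read 7.44, 7.55 and 7.48 in P_DOX replicates 1 to 3, against 7.74, 7.63 and 7.77 in M_DOX replicates 1 to 3. These groups did not overlap, and the log2 change was -0.22 (SE 0.0842, limma adjusted p = 0.276). A second probe (ILMN_2249920) read 5.94, 5.97 and 5.85 in P_DOX against 6.04, 6.09 and 6.28 in M_DOX replicates 1 to 3, again without overlap, with a log2 change of -0.21 (SE 0.0953, limma adjusted p = 0.345). Its M_DOX replicate 3 was the highest, and the difference in that pair was -0.43 against -0.10 and -0.12 in the pairs of replicates 1 and 2. The probe ILMN_1781207 was at -0.12 (limma adjusted p = 0.612) and ILMN_2380801 at 0.03 (limma adjusted p = 0.904, 95% interval from -0.18 to 0.24), both with overlapping groups. This dim pair lay at 5.36 and 5.64 in P_DOX arrays and at 5.48 and 5.61 in M_DOX arrays, closer to background than the brightest one. Which transcript each probe can tell from the others was not analysed here.

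YES1, the member most like SRC in structure, had no common direction over its pairs of arrays. It read 7.31, 7.46 and 7.53 in P_DOX replicates 1 to 3, against 7.52, 7.32 and 7.26 in M_DOX replicates 1 to 3. The groups overlapped fully, and the difference was -0.21 in replicate 1 but 0.14 and 0.27 in replicates 2 and 3. The log2 change was 0.07 (limma adjusted p = 0.799), with a 95% interval from -0.17 to 0.31 that leaves room for a modest change either way.

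LCK, the T cell member, was at the edge of detection. Its detection p was under 0.01 on 2 of 3 P_DOX arrays and 1 of 3 M_DOX arrays, which puts it just inside the limit of 3 of 6 arrays, and the other 11 probes passed on all 6. None of the 12 was detected on fewer than 3, and probes detected on no array could not be counted. LCK read 5.24, 4.58 and 5.15 in P_DOX replicates 1 to 3, against 5.21, 4.99 and 4.70 in M_DOX replicates 1 to 3. The arrays of each group spread widely, and the change of 0.03 (limma adjusted p = 0.963) had a 95% interval from -0.42 to 0.47. A change in LCK was not detectable at this signal.

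CSK, which shuts the family down, did not pass the test. It read 9.82, 9.71 and 9.73 in P_DOX replicates 1 to 3, against 9.97, 9.74 and 9.80 in M_DOX replicates 1 to 3. The difference was below 0 in all 3 pairs, at -0.15, -0.03 and -0.07, but the groups overlapped. Its log2 change of -0.08 had a 95% interval from -0.30 to 0.13 (limma adjusted p = 0.722).

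PTK2, the focal adhesion kinase that SRC binds, read lower with doxycycline on its bright probe without passing the test. That probe (ILMN_1714364) read 11.19, 11.23 and 11.08 in P_DOX replicates 1 to 3, against 11.30, 11.41 and 11.43 in M_DOX replicates 1 to 3, without overlap. The mean was 11.16 ± 0.08 in P_DOX and 11.38 ± 0.07 in M_DOX arrays (SD, n = 3 each), a log2 change of -0.22 (SE 0.0868, limma adjusted p = 0.301). Its other probe (ILMN_1676305), annotated to another transcript and near background at 5.66 in P_DOX and 5.74 in M_DOX arrays, was at -0.08 (limma adjusted p = 0.807), and its M_DOX replicate 2 of 5.47 lay below every P_DOX array.

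BCAR1, the scaffold that SRC phosphorylates, had a change above 0 that did not pass the test. It read 7.69, 7.78 and 7.83 in P_DOX replicates 1 to 3, against 7.73, 7.71 and 7.59 in M_DOX replicates 1 to 3. The groups overlapped, and the log2 change of 0.09 had a 95% interval from -0.11 to 0.29 (limma adjusted p = 0.677).

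**Figure D2:**
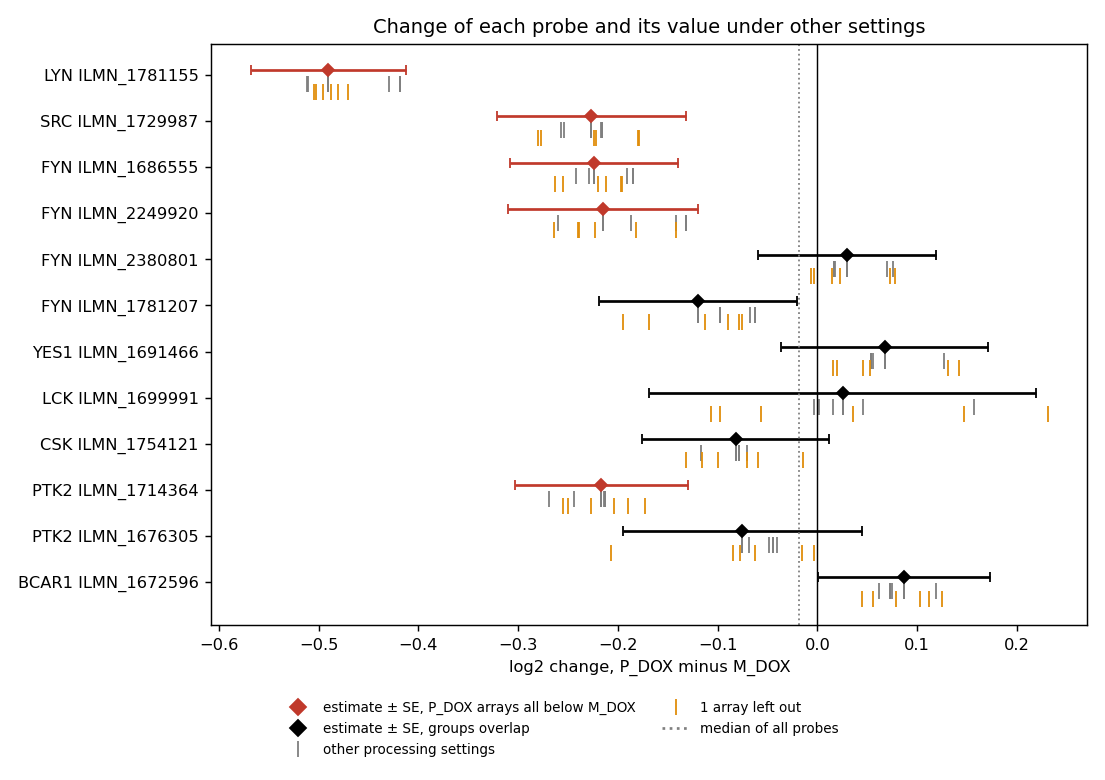
Log2 change of each probe (x axis, P_DOX minus M_DOX; diamond with SE bar), with ticks for the value under other processing settings and with 1 array left out. LYN stays between -0.51 and -0.42, SRC between -0.28 and -0.18, and the changes of FYN ILMN_2380801 and LCK cross 0.

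The only one of the 12 probes past an adjusted p of 0.05 was that of LYN, and as LYN was chosen on this comparison nothing is read from it. Over all probes tested 0.109% were called lower with doxycycline and 0.573% higher. Among the other 11 probes 0 were called by limma, and 3 had an unadjusted p under 0.05, all lower: SRC, FYN ILMN_1686555 and PTK2 ILMN_1714364. Over all probes 6.18% were lower and 8.74% higher at that unadjusted limit. Of the 11, 4 had P_DOX arrays all below the M_DOX arrays, and 2 of these 4 are FYN probes that share a gene, where 10.6% of all probes were so placed. None of the 11 lay the other way, against 11% of all probes. The median change of the 11 was -0.08, beside -0.02 over all probes tested, and 7 lay below 0, against 54.2% of all probes. In raw intensity 8 of the 12 probes had lower P_DOX arrays without overlap, against 5 after normalization, beside the lower median raw intensity of the P_DOX arrays given above. The share of all probes so placed in raw intensity was not analysed here, so nothing about these genes is read from the raw count.

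The size of these changes was read under 11 alternatives that can move it: other background corrections and scalings, the deposited table, array weights and 1 array left out. The deposited table and no background correction gave nearly the same values, both -0.216 for SRC, so they are not separate checks. SRC stayed between -0.28 and -0.18, FYN ILMN_1686555 between -0.26 and -0.18, and PTK2 ILMN_1714364 between -0.27 and -0.17. The smaller changes depended on single arrays. CSK was at -0.01 without M_DOX replicate 1 and at -0.13 without M_DOX replicate 2, and PTK2 ILMN_1676305 at -0.0036 without M_DOX replicate 1, -0.015 without M_DOX replicate 3 and -0.21 without M_DOX replicate 2. YES1 was at 0.02 without either P_DOX or M_DOX replicate 3, at 0.13 without P_DOX replicate 1 and at 0.14 without M_DOX replicate 1. BCAR1 was at 0.06 without P_DOX replicate 3 and at 0.04 without M_DOX replicate 3. FYN ILMN_2249920 was at -0.14 without M_DOX replicate 3 and at -0.13 without background correction. FYN ILMN_1781207 was at -0.08 without either P_DOX replicate 1 or M_DOX replicate 2, at -0.19 without M_DOX replicate 1 and at -0.06 without background correction. None of the 11 probes other than LYN was called in any alternative.

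The wider circuit was read from lists named for their known roles, over 9841 genes of which 0.539% were called in either direction. Of 60 genes tested in 7 lists limma called 0. At an unadjusted p under 0.05, 7 were lower and 2 higher, against 6.61% of all genes lower and 8.09% higher. In 7 of the 60 all P_DOX arrays lay below the M_DOX arrays, against 11.3% of all genes, and in 3 above them, against 10.2%. With the replicate number as a block limma called 2 of the 60, the integrin subunit ITGA5 and CD79A, both lower, and 177 of all 9841 genes. Of the other SRC-like kinases only PTK6 of 5 was tested, at -0.06 (limma adjusted p = 0.821), and its dimmer probe was at 0.11. Regulators of the family, mostly phosphatases and ubiquitin ligases with the kinase MATK, the adaptor PAG1 and the chaperone UNC119, had 10 of 17 genes tested, with a median change of -0.05 beside -0.03 over all genes. Their largest changes were those of PTPN6, a phosphatase best known from blood cells, at -0.22 (limma adjusted p = 0.568), PTPN2 at -0.18 (limma adjusted p = 0.39) and PTPN1 at -0.14 (limma adjusted p = 0.573).

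Among partners of PTK2 and BCAR1 at adhesions, 20 of 29 genes were tested and the median was 0.00, with 10 below and 10 above 0. PXN, the adhesion scaffold paxillin, averaged 6.55 ± 0.15 in P_DOX and 6.18 ± 0.19 in M_DOX arrays (SD, n = 3 each) without overlap, at 0.37 (limma adjusted p = 0.237). PTK2B, the kinase closest to PTK2, was at 0.33 (limma adjusted p = 0.369), and the adaptor SH2D3A at -0.30 (limma adjusted p = 0.393), both with overlapping groups. That PTK2B probe was detected on 4 of 6 arrays. A second PTK2B probe, detected on 1 array and not tested, averaged 4.76 in P_DOX and 4.89 in M_DOX arrays. 

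Integrins are the receptors that feed this kinase circuit from the matrix, and 7 of the 9 listed subunits were tested. ITGA5, the alpha subunit of the fibronectin receptor, read 6.57, 6.60 and 6.78 in P_DOX replicates 1 to 3, against 7.15, 7.14 and 7.51 in M_DOX replicates 1 to 3. The groups did not overlap, and its log2 change of -0.61 (SE 0.122) was larger in size than that of LYN but did not pass (limma adjusted p = 0.0934). It passed with the replicate block (adjusted p = 0.0271), and its adjusted p ran up to 0.218 over the other alternatives. ITGA2, a collagen receptor subunit, was at -0.20 without overlap (limma adjusted p = 0.382) and ITGB5 at -0.11 (limma adjusted p = 0.577). The dimmer ITGB5 probes were at -0.16 and 0.03. The median of the 7 subunits was -0.06.

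Substrates and effectors had 14 of 17 genes tested, with a median of -0.03 and 10 below 0, where 5571 of all 9841 genes lay below 0. CDCP1, a membrane protein that SRC family kinases phosphorylate, was at -0.27 (limma adjusted p = 0.339), ANXA2 at -0.23 without overlap (limma adjusted p = 0.266) and the adaptor GAB2 at -0.20 (limma adjusted p = 0.565). The dimmer probes of CDCP1 were at -0.33, -0.31 and -0.0006, and those of ANXA2 at -0.27 and -0.14. Among receptor tyrosine kinases 6 of 11 were tested, with a median of -0.09. PDGFRA was at -0.40 (limma adjusted p = 0.325), MET at 0.23 with P_DOX arrays all above M_DOX (limma adjusted p = 0.244) and EGFR at -0.20 (limma adjusted p = 0.6).

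**Figure D3:**
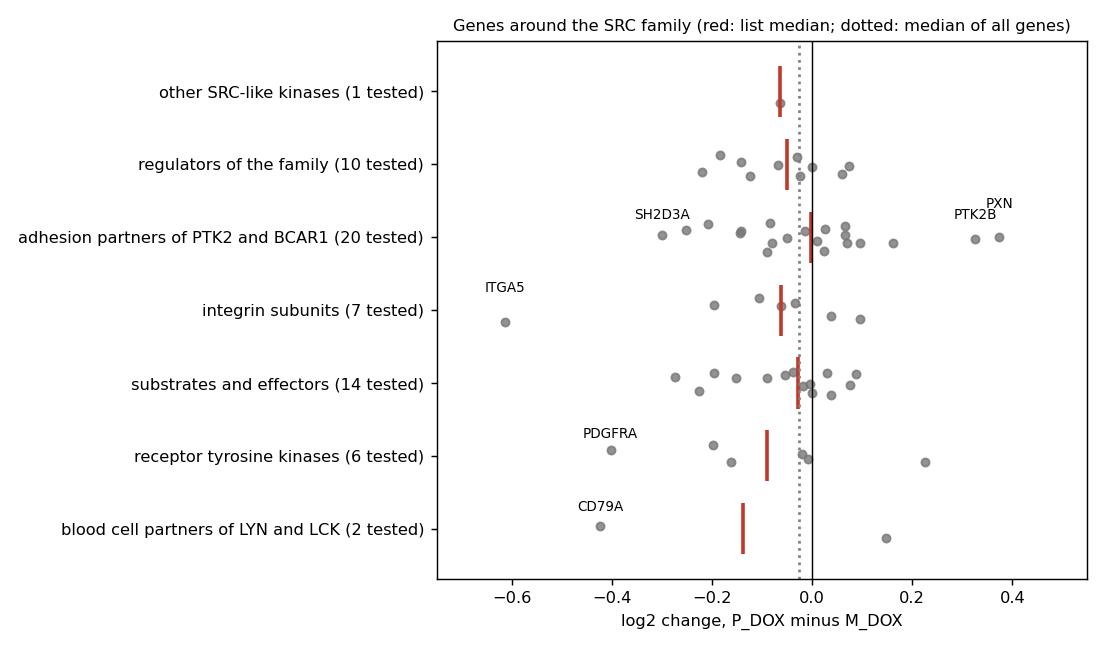
Log2 change (x axis, P_DOX minus M_DOX) of the tested genes in 7 lists around the SRC family, 1 point per gene, with a red bar for the list median and a dotted line for the median of all genes (-0.03). ITGA5 at -0.61 lies farthest from 0, and the list medians lie between -0.14 and 0.00.

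LYN and LCK are also markers of blood cells, so their partners there were read too. Of 13 such genes 2 were tested. CD79A, a chain of the B cell receptor, read 5.28, 5.38 and 5.10 in P_DOX replicates 1 to 3, against 5.75, 5.83 and 5.45 in M_DOX replicates 1 to 3. Its groups did not overlap, at a log2 change of -0.42 that did not pass (limma adjusted p = 0.19). CD79A passed with the block (limma adjusted p = 0.0477), and its change was -0.22 without background correction. It lay near background, with means of 5.25 in P_DOX and 5.68 in M_DOX arrays, though detected on all 6 arrays. FCGR2B was at 0.15 (limma adjusted p = 0.668). Of 7 lymphocyte markers 3 had a listed probe, and 1 of these, MS4A1, was detected on 1 array only. The summed raw intensity of the 3 ran from 223 to 254 in P_DOX and from 274 to 288 in M_DOX arrays. All sums given here are of uncorrected intensities and include background, where the array medians of all probes ran from 60.03 to 68.04. PTPRC, CD3E and CD3D were not analysed here. Of 5 myeloid markers 2 had probes, summing to 375 to 444 in P_DOX and 460 to 523 in M_DOX arrays. Fibroblast markers (4 of 5 with probes) summed to 2668 to 3032 in P_DOX and 2799 to 3459 in M_DOX arrays. Among them the brightest COL1A2 probe averaged 10.92 log2 units in P_DOX and 10.95 in M_DOX arrays, while COL3A1 and DCN were each detected on 1 array. The endothelial PECAM1, 1 of 4, ran from 65.5 to 98.0 in P_DOX and from 84.3 to 106 in M_DOX arrays. The lymphocyte and myeloid sums were lower in the P_DOX arrays, whose median raw intensity was lower too. The raw sum of the regulators of the family was also lower without overlap, at 6139 to 6189 in P_DOX against 6897 to 7021 in M_DOX arrays. That of the epithelial markers overlapped, at 5237 to 6396 in P_DOX and 5678 to 7009 in M_DOX arrays. After normalization CD2 (-0.21), CD14 (-0.31) and CD68 (-0.16) had overlapping groups. The part of other cells in the LYN values was not tested.

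The genes whose signal followed LYN most closely over the 6 arrays were sought among 5338 named genes whose SD was at least 0.5 times that of LYN. The highest Pearson correlations were 0.993 for NUDT11, 0.992 for the lipid droplet protein CIDEC, 0.992 for IER5, an immediate early gene, 0.991 for DNAJC24 and 0.989 for FABP5, a fatty acid binding protein. Their log2 changes were -0.50, -0.95, -0.55, -0.28 and -0.26 in that order. The lowest correlations were -0.998 for the mitochondrial protein SFXN4, -0.995 for COXFA4, a subunit of cytochrome c oxidase, and -0.994 for THUMPD3. Next were -0.993 for the mitochondrial ribosomal protein MRPL41 and -0.992 for NDUFA9 of respiratory complex I. These 5 were higher with doxycycline, by 0.49, 0.83, 0.53, 0.45 and 0.30 on the log2 scale. The 6 points fall into the 2 groups, so such values mostly restate the difference between groups, and 112 genes had a correlation over 0.9 and 236 one under -0.9. Of the deviations from the group means the correlation with LYN was weaker for all 10 genes, at 0.83 for CIDEC, 0.65 for IER5, 0.56 for NUDT11, 0.54 for FABP5 and 0.40 for DNAJC24. It was -0.95 for THUMPD3, -0.93 for SFXN4, -0.69 for COXFA4, -0.45 for MRPL41 and -0.42 for NDUFA9. Within the gene group itself, the correlation with LYN over the 6 arrays was 0.91 for PTK2, 0.90 for FYN and 0.82 for SRC on their brightest probes, 0.42 for CSK, -0.11 for LCK, -0.37 for YES1 and -0.63 for BCAR1. Of the deviations it was 0.95 for PTK2, 0.14 for SRC, -0.02 for FYN, -0.45 for CSK, -0.46 for BCAR1, -0.63 for LCK and -0.64 for YES1. All of these are descriptions over arrays that share their normalization. Those of the deviations rest on small differences, as the SD of LYN was 0.035 in P_DOX and 0.022 in M_DOX arrays (n = 3 each).

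**Figure D4:**
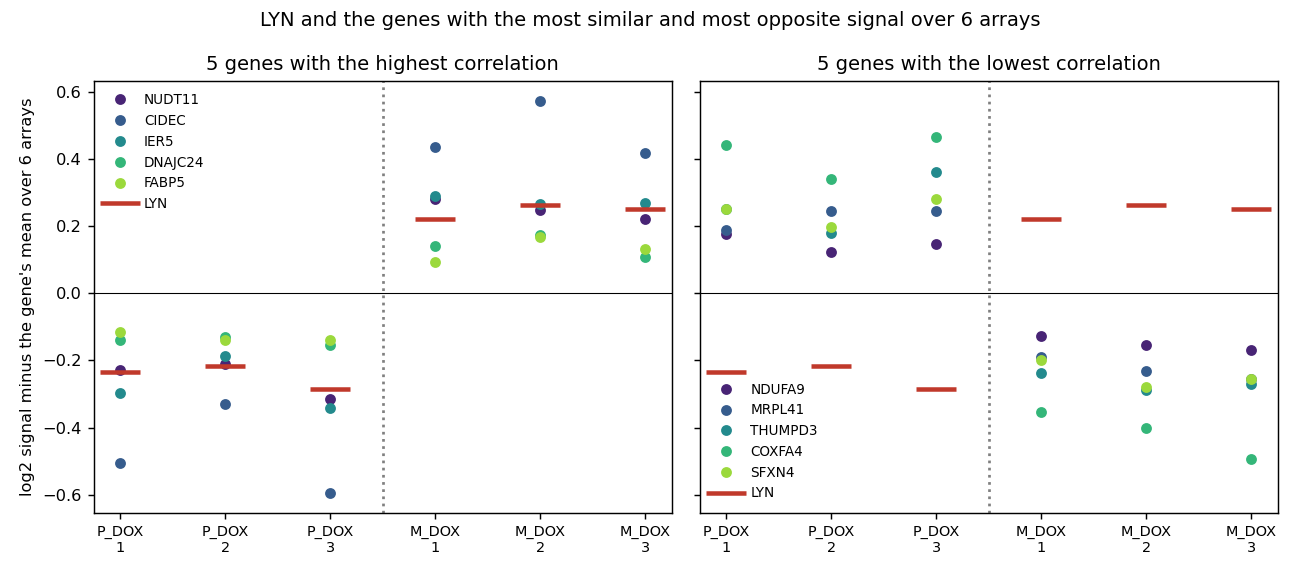
Log2 signal of LYN (red bars) and of the 5 genes with the highest (left) and lowest (right) correlation with it, each minus its mean over 6 arrays (y axis), on the 3 P_DOX and then the 3 M_DOX arrays. LYN and the 5 genes on the left lie below 0 on all P_DOX arrays, and the 5 on the right above it.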

How the data were processed

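RNA of 3 P_DOX and 3 M_DOX samples was hybridised to Illumina bead arrays, 1 per sample. The deposited table holds intensity for 47231 probes on a linear scale with a detection p-value for each, per the file headers. The deposited log2 table holds the 17925 probes that were detected (p under 0.01) anywhere, and its columns share a median of 7.51; the submitters' processing notes name lumi. Scanner software is not given in the sources used here.

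Intensities were corrected with normexp from the detection p-values (offset 16), then quantile-normalized on the log2 scale, in limma 3.58.1 under R 4.3.3. Probes detected at that limit on 3 or more of the 6 arrays, 15542 in all, entered lmFit and eBayes. Tests were two-sided, and a call needs an adjusted p (Benjamini-Hochberg) under 0.05. For lists, the probe with the highest mean stood for a gene (9841 genes), so a gene's adjusted p there can differ slightly from that of its probe. Annotation listed 13981 probes; 13977 had 1 gene, 4 several, and 3944 were not listed. Symbols were updated through RefSeq (13970 matched).

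The members and lists were chosen with earlier results of these data known. The genes named were all member probes, up to 3 genes a list by size of change, and the 5 genes each way most correlated with LYN; PTPRC and the like are named only as not analysed. Same-numbered samples deviated from their group means together (correlations 0.40, 0.46 and 0.24 for replicates 1, 2 and 3), so the block by number is given where it changes a call. The fit was tested on simulated data for the comparison of all 15542 probes: 78% of 100 probes changed by 1 log2 unit and 23% of 100 changed by 0.5 were recovered. The number of arrays limits the precision. Slide and scan were not analysed here. Alternatives are listed in the closing section.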

Additional observations from a re-analysis of the deposited data

How the results depend on the processing

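The number of probes called, 106 as reported, was 198 both on the deposited log2 table and with no background correction, 185 with a normexp offset of 50, 6 without a detection filter, 255 with array weights, 184 with a variance trend and 167 with the replicate block. It ran from 1 to 26 with 1 array left out. The number of genes called, 53 as reported, was 81 in both of these, 80 with the offset of 50, 34 with median scaling, 30 without a detection filter, 207 with array weights, 100 with a variance trend and 177 with the block, and ran from 1 to 9 with 1 array left out. The 1 member probe called (LYN) was lost (0 called) with median scaling, without a detection filter and in all fits with 1 array left out, which have fewer samples. List genes called were 0 in all alternatives but the replicate block, which gave 2. The change of FYN ILMN_2380801 ran from -0.0065 to 0.078 with 1 array left out, at -0.0032 without P_DOX replicate 3 and -0.0065 without M_DOX replicate 3, and that of LCK from -0.1066 to 0.231, turning to -0.0034 on the deposited table and to -0.0977, -0.0569 and -0.1066 without P_DOX replicate 1, P_DOX replicate 3 and M_DOX replicate 3; the causes were not tested. The block, by replicate number, changed no other call among the members. Low signal over background limits LCK, 3 FYN probes and 1 PTK2 probe.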
